A study of Rattus norvegicus and Mus musculus with 12 samples.

Results

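The nuclear genes for subunits of the mitochondrial respiratory chain and ATP synthase were examined in articular chondrocytes of newborn rats and mice, with and without IL-1β. A gene was included when its symbol named a subunit of complex I (Nduf followed by a, b, c, s or v and a number), complex II (Sdha to Sdhd), complex III (Uqcr and Cyc1), complex IV (Cox4 to Cox8) or complex V (Atp5), or was Cycs, the gene of cytochrome c, and when its mean FPKM reached 1 in at least 1 group. FPKM is the number of fragments per kilobase of gene, scaled to the depth of the library. Symbols of pseudogenes were left out. This gave 83 of the 19687 genes in the rat table and 83 of the 28603 in the mouse table, with 34 genes of complex I and 4 of complex II in each species, 10 (rat) and 9 (mouse) of complex III, 17 and 18 of complex IV, 17 and 17 of complex V, and Cycs. Ndufa4 and its paralog Ndufa4l2, named for complex I, were counted with complex IV, where the NDUFA4 protein is now placed. Atp5s, the rat Atp5if1 and Cox7a2l carry matching symbols but are not classical subunits.

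The RC group was the control and the RM group the model of Sprague-Dawley rats, and the MC and MM groups were those of C57BL/6 mice, with 3 libraries in each group. The chondrocytes were primary cells from articular cartilage of newborn animals at passage 1, and the model groups received 20 ng/ml IL-1β, a cytokine that drives cartilage inflammation, for 24 h. The strain labels of the mouse libraries run on from C57BL/6 in number, while the methods name C57BL/6 alone. Nothing in the labels says whether the 3 libraries came from separate animals or cultures, so P values measure the spread between these libraries. The question addressed was whether IL-1β changed these genes in the same way in rat and mouse chondrocytes.

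The respiratory chain passes electrons from NADH (complex I) and succinate (complex II) through complex III and cytochrome c to oxygen at complex IV, and ATP synthase (complex V) uses the proton gradient so formed. Most subunits are nuclear genes that every cell expresses, and 13 are encoded in mitochondrial DNA. A few complex IV subunits and Ndufa4 have paralogs that differ between tissues or respond to low oxygen, among them Ndufa4l2, Cox4i2, Cox6a2, Cox7a1 and Cox8b. Articular cartilage has no blood vessels, and chondrocytes are known to rely largely on glycolysis.

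Promoters of the rat members were taken from RefSeq, from 250 bases before to 50 bases after each start site. Of the 80 rat member symbols, 68 matched. Motif cores bound by factors known for nuclear respiratory genes were searched on both strands: the NRF1 core CGCATGCG, the ETS core CCGGAAG bound by GABPA, the YY1 core AAGATGG and the cAMP response element TGACGTCA. The NRF1 core was in 8 of 68 member promoters (11.8%) and in 1.66% of the 33469 promoters of the table. The ETS core was in 18 (26.5%) against 8.75%, the YY1 core in 18 (26.5%) against 7.01%, and the cAMP response element in 4 (5.88%) against 1.83%. By complex, the NRF1 core was in 5 of 14 promoters of complex V, 1 of 30 of complex I and 0 of 13 of complex IV. The core ACGTG of the hypoxia response element, chosen after the values were seen, was in 18 member promoters (26.5%) and in 19.3% of all. These matches are descriptions of letters, not of bound sites. No promoter of Cox4i2 was in the table.

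The following promoters, 5′ to 3′ on the gene's strand, are those of Ndufa4l2, which rose most among the members in both species, of its constitutive paralog Ndufa4, of Cox4i1, the constitutive paralog of Cox4i2, and of Atp5me, a small membrane subunit of ATP synthase that fell in rat. Capitals mark every match of the 5 motifs.
Ndufa4l2, GRCr8 chr7:65241919-65242218, strand +: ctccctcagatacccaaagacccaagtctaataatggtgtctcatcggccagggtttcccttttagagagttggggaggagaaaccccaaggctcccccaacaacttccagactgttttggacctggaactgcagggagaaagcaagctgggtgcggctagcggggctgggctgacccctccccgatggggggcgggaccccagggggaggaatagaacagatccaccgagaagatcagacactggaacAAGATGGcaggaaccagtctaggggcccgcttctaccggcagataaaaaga
Ndufa4, GRCr8 chr4:40975510-40975809, strand -: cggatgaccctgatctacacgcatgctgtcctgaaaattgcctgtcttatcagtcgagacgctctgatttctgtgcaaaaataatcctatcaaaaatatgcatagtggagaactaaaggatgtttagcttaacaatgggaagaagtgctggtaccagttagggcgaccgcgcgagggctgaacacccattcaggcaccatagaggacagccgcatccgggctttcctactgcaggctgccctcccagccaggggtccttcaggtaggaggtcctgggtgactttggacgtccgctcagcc
Cox4i1, GRCr8 chr19:65630133-65630432, strand +: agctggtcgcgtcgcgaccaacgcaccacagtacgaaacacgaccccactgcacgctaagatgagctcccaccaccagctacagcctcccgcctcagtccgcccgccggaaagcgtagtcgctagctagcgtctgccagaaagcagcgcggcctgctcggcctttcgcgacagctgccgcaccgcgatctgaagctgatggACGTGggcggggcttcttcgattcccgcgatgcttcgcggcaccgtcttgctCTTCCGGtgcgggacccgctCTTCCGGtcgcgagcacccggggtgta
Atp5me, GRCr8 chr14:1464610-1464909, strand +: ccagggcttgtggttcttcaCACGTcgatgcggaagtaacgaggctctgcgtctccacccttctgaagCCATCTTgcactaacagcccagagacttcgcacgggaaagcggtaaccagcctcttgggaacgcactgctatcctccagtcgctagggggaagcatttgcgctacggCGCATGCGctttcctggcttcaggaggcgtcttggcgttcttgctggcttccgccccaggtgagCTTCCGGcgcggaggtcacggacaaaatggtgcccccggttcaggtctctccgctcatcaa
The Ndufa4l2 window held 1 YY1 core and no match of the other 4 motifs, and the Ndufa4 window held none of the 5. In the Cox4i1 window there were 2 ETS cores and 1 ACGTG, and in the Atp5me window 1 match each of the NRF1, ETS and YY1 cores and of ACGTG.

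The libraries held 16841580 to 25903459 counts each. Members took 0.623 to 0.732% of counts in RC, 0.616 to 0.647% in RM, 0.721 to 0.748% in MC and 0.613 to 0.618% in MM. TMM factors, which scale libraries so that most genes do not change, were 0.994 to 1.01 in rat. In mouse they were 1.099 to 1.104 in the MC libraries and 0.905 to 0.911 in the MM libraries, so that with library size alone the median mouse gene had a log2 fold change of -0.30 in place of -0.02. Mouse changes below are relative to the TMM scale, on which the median gene was at -0.02, and levels are scaled FPKM, the deposited FPKM divided by the TMM factor of the library. All 8 chondrocyte markers tested, including Col2a1 and Acan, were expressed and were lower in the model groups of both species, with a summed FPKM of 4969 to 5618 in RC against 1944 to 1998 in RM and of 2007 to 2045 in MC against 228 to 241 in MM. Since these are bulk samples, fewer cells of a type and less RNA per cell cannot be told apart.

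In rat chondrocytes most subunit genes were not called, and most of those called were lower in RM. Of 82 members tested, 18 fell and 2 rose at an adjusted P under 0.05 (edgeR's quasi-likelihood test, Benjamini-Hochberg over all genes tested), beside 16.8% of all 13303 rat genes that fell and 18.3% that rose. The share that fell among the members was 21.95%, close to the background, and the share that rose was 2.44%. The median log2 fold change was -0.12 over the members and 0.01 over all genes tested. The study sets limits on fold change, P and FPKM for DEGs without naming a log scale or an adjustment of P. Taken here as log2 values with P left unadjusted (fold change from 0.85, P below 0.05, FPKM from 1 in a library), 1 member rose (Ndufa4l2) and 1 fell (Cox6a2), against 4.64% and 3.9% of all genes.

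In mouse chondrocytes more members were called, in both directions, and the changes of most were below 1 on the log2 scale. The mouse libraries also spread less, with a median SE of the members of 0.050 in mouse and 0.094 in rat. A change of the same size was thus less readily called in rat, and the counts of rat and mouse are not directly comparable. In mouse 40 of 82 members tested fell and 22 rose, beside 37.7% of all 14774 mouse genes that fell and 37.4% that rose. The members that fell were 48.8% and those that rose 26.8% of the members tested. With library size alone 65 fell and 6 rose, and of the 22 that rose on the TMM scale 10 then had a negative sign, of which 5 were called lower (Ndufs5, Uqcrfs1, Cox6c, Cox7a2 and Cox7b), whereas all 40 that fell remained called. The 6 that still rose were Ndufa4l2, Cox7a1, Cox4i2, Ndufv3, Ndufa1 and Uqcrq. With library size alone the median log2 fold change was -0.38 over the members and -0.30 over all genes tested. No share of all genes called was counted on that scale, so the 65 and 6 have no background beside them. By the criteria of the study, read in the same way, 4 members rose (Ndufa4l2, Cox7a1, Cox4i2 and Ndufv3), against 12.6% of all genes, and 3 fell (Cox6a2, Cox6b2 and Atp5s), against 13.0%. In each species 2 members reached FPKM 1 in 1 group only, and of these mouse Cox6a2 alone was called. Mouse Cox6a2 reached it in MC, so the rule favoured its fall.

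**Figure D1:**
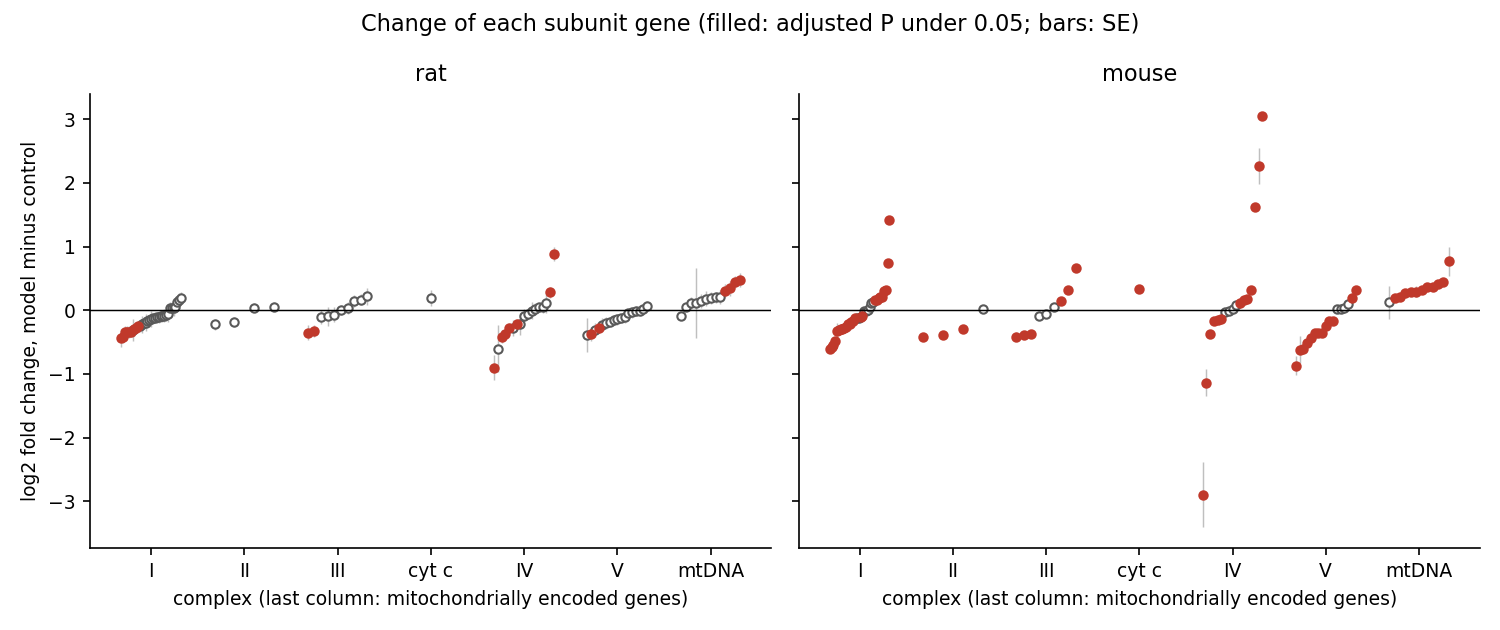
Log2 fold change (model minus control, y axis) of each tested subunit gene by complex (x axis), in rat (left) and mouse (right), with the mitochondrially encoded genes in the last column. Filled points passed an adjusted P under 0.05, and bars are standard errors. The rat points lie between -0.90 and 0.89, and in mouse the complex IV points reach from -2.89 to 3.04.

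Over all 83 rat members the summed scaled FPKM was 7244, 7763 and 8644 in RC and 7269, 7026 and 7335 in RM. The lowest RC library lay within the range of the RM libraries, so the groups overlapped. In mouse the sum was 4097, 4044 and 3920 in MC and 4456, 4424 and 4442 in MM, higher in MM without overlap on the TMM scale. These sums include Ndufa4l2, at 55.1 to 57.9 in MC and 460 to 472 in MM. The direction turned without the TMM factors, since the deposited FPKM summed to 4503, 4456 and 4327 in MC and 4033, 4016 and 4044 in MM. By complex, the mean of MM over that of MC on the TMM scale was 1.04 for complex I, 0.863 for complex II, 1.06 for complex III, 1.39 for complex IV and 0.870 for complex V. Without the paralogs Ndufa4l2, Cox4i2, Cox6a2, Cox6b2, Cox7a1 and Cox8b, the ratio of complex IV was 1.03 on the TMM scale. This ratio was not computed on the deposited FPKM. With library size alone the median log2 fold change of the 12 remaining genes was -0.28, and -0.30 over all mouse genes tested. On the deposited FPKM the ratios were 0.859, 0.711, 0.877, 1.15 and 0.717 for complexes I to V, so complexes I and III turned direction with the scaling.

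**Figure D2:**
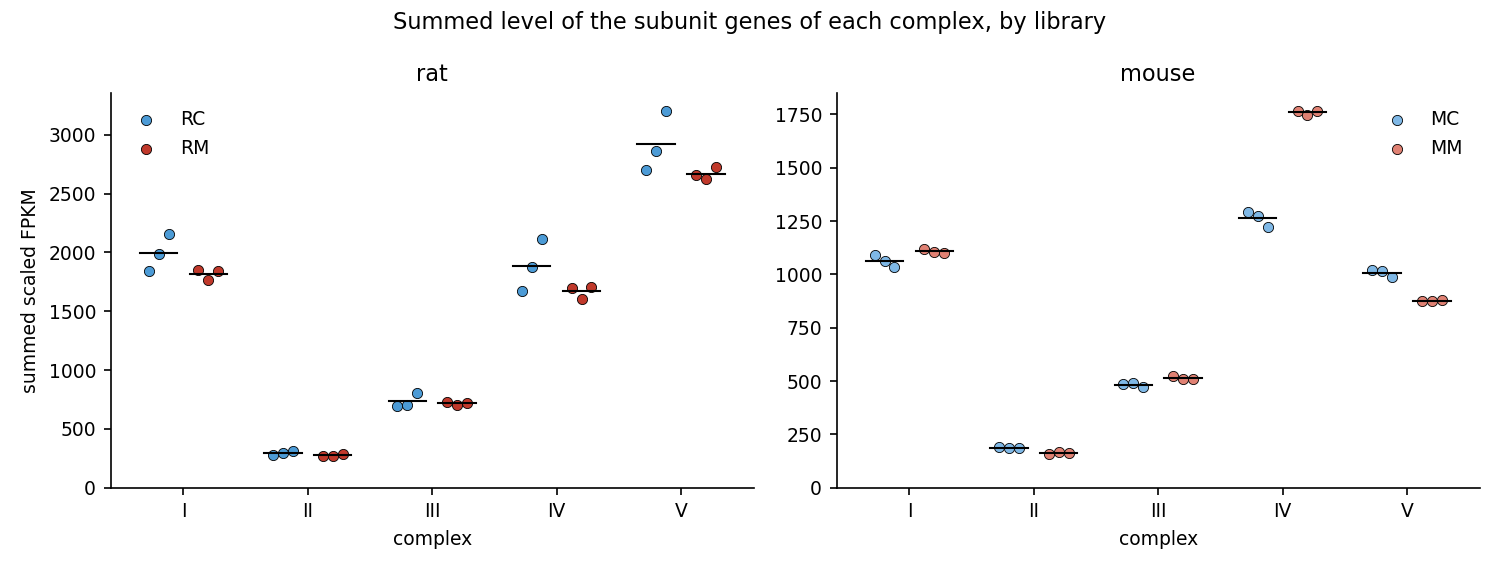
Summed scaled FPKM of the members of each complex (x axis) in every library (points) with the group mean (line), for rat (left) and mouse (right). The RC libraries spread most, from 2697 to 3204 in complex V, and the complex IV sum of the MM libraries, 1749 to 1767, lies above the 1224 to 1291 of MC on this scale.

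The largest changes were in the paralogs of complex IV. Ndufa4l2 is a paralog of Ndufa4 known to be induced by hypoxia. In mouse its scaled FPKM was 57.9, 56.8 and 55.1 in MC and 466, 472 and 460 in MM. Every MM library lay far above every MC library, an 8.24-fold difference (log2 fold change 3.04, SE 0.04, adjusted P = 4.1e-62). The mouse gene spans chr10:127514967-127517154 on the plus strand (GRCm38). In rat the levels were 21.9, 26.3 and 27.0 in RC and 50.4, 41.0 and 47.7 in RM, again without overlap, a 1.85-fold rise (log2 0.89, SE 0.11, adjusted P = 0.00013).

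Ndufa4 itself, which encodes the constitutive protein, fell in rat and was not called in mouse on the TMM scale. Its levels were 42.8, 40.4 and 43.0 in RC and 32.4, 34.0 and 30.9 in RM (log2 -0.38, SE 0.08, adjusted P = 0.0040). In mouse they were 58.4, 60.9 and 57.5 in MC and 58.1, 56.4 and 60.5 in MM, and the groups overlapped (adjusted P = 0.74). The difference between the species, mouse minus rat, was 0.36 (SE 0.09, adjusted P = 0.0017). With library size alone mouse Ndufa4 was called lower (log2 -0.30, adjusted P = 9.8e-09), and the difference between the species was not called. As a share of the Ndufa4l2 and Ndufa4 levels together, which does not depend on the scaling of a library, Ndufa4l2 was 37.3 ± 3.02% (SD, n = 3) in RC, 58.7 ± 3.53% in RM, 49.0 ± 0.755% in MC and 88.9 ± 0.475% in MM. With 3 libraries against 3 an exact permutation test cannot give a P below 0.1, so shares are given without a test.

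Cox4i2 encodes the form of subunit 4 linked to low oxygen, and Cox4i1 the common form. Cox4i2 was at 25.1, 26.7 and 24.0 in MC and 70.5, 83.3 and 78.6 in MM, a 3.07-fold rise (log2 1.62, SE 0.06, adjusted P = 2.8e-32). The mouse gene lies at chr2:152754173-152765037 on the plus strand (GRCm38). In rat it was at 34.5, 40.0 and 40.4 in RC and 44.2, 47.6 and 47.5 in RM, a small rise without overlap (log2 0.28, SE 0.085, adjusted P = 0.0275), which was not called without RM replicate 2 or without RM replicate 3.

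Cox4i1 was at 105, 99.8 and 95.7 in MC and 104, 99.5 and 101 in MM, with overlap. In rat it fell from 329, 376 and 413 in RC to 309, 300 and 312 in RM (log2 -0.28, SE 0.08, adjusted P = 0.026). The share of Cox4i2 in the level of both genes was 9.33 ± 0.370% in RC, 13.1 ± 0.596% in RM, 20.1 ± 0.894% in MC and 43.3 ± 2.57% in MM (SD, n = 3). The common form was therefore the more abundant in every group.

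**Figure D3:**
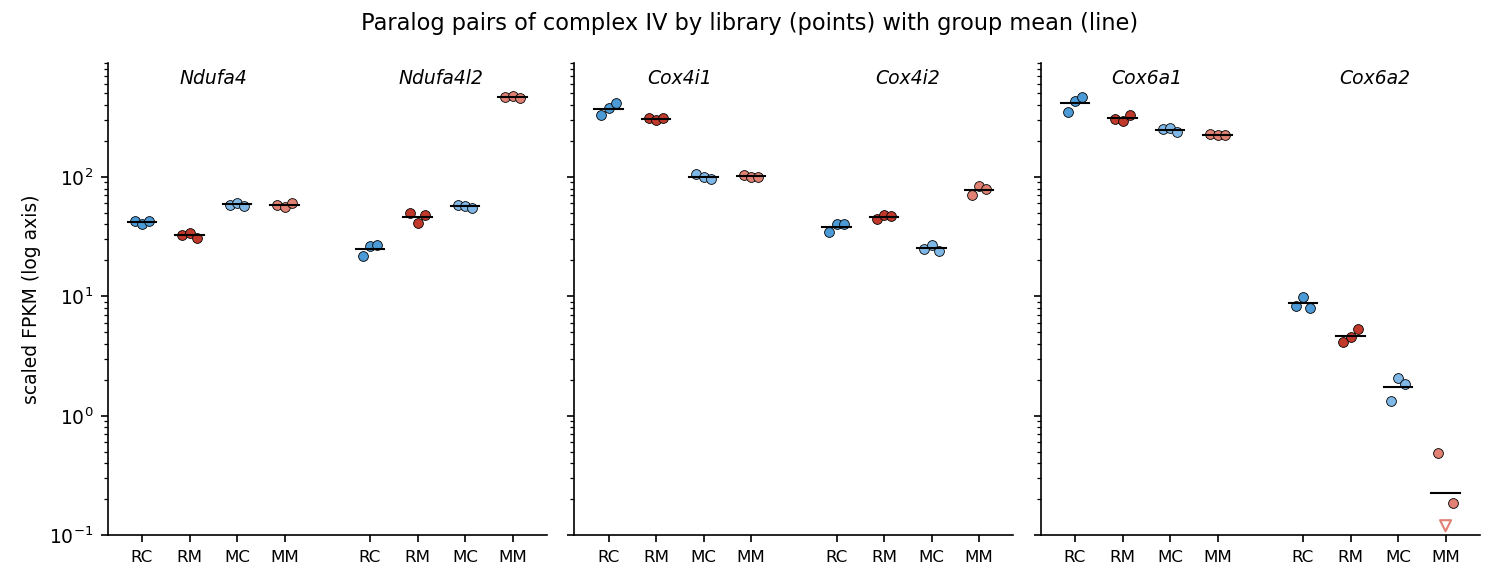
Scaled FPKM (log axis) of the paralog pairs Ndufa4 and Ndufa4l2, Cox4i1 and Cox4i2, and Cox6a1 and Cox6a2 in each library (points) of RC, RM, MC and MM, with the group mean (line) and an open triangle for a library at 0. Ndufa4l2 reaches 460 to 472 in MM, while Cox6a2 is at most 0.486 there.

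The forms found mainly in heart and skeletal muscle moved in different directions. Cox6a2 fell in mouse from 1.33, 2.06 and 1.85 in MC to 0.486, 0 and 0.185 in MM, on 68 against 8 counts (log2 -2.89, SE 0.51, adjusted P = 1.0e-06). In rat it fell from 8.33, 9.94 and 8.02 in RC to 4.15, 4.54 and 5.32 in RM (log2 -0.90, SE 0.19, adjusted P = 0.00485). Cox8b was at 1.18, 0.599 and 0.981 in MC and at 0, 0.156 and 0 in MM, on 19 against 1 counts, and did not pass the filter on low counts. Mouse Cox6a2 and Cox8b were members through MC alone, with mean deposited FPKM of 1.93 and 1.01 there and 0.203 and 0.047 in MM. The rule thus favoured a fall of both, and the P of Cox6a2 does not allow for this.

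Cox7a1 rose in mouse from 0.695, 1.51 and 1.60 to 6.90, 5.58 and 6.11 (log2 2.27, SE 0.28, adjusted P = 1.3e-10), on 39 against 172 counts, and lies at chr7:30184144-30186078 on the plus strand (GRCm38). In rat Cox7a1 was at a mean FPKM of 0.171 in RC and 0.117 in RM and so was not a member, and rat Cox8b was at 0. The ubiquitous Cox7a2 rose in mouse (log2 0.16, SE 0.05) but was called lower with library size alone (-0.12, adjusted P = 0.028). Beside these, of 10 muscle markers in mouse 4 were tested and 3 fell (Des, Tnnt3 and Acta1), with a summed FPKM of 5.45 to 6.54 in MC and 1.33 to 1.98 in MM, and Ckm had 0 counts in MC and 1 in MM. In rat 1 of 4 tested markers fell (Tnnt3), with a sum of 7.77 to 8.27 in RC and 4.41 to 5.53 in RM. Their part in the levels of Cox6a2 and Cox8b was not tested.

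Cox6b2, a form of subunit 6b known from testis, fell in mouse from 3.98, 3.40 and 3.32 to 1.54, 1.63 and 1.70 (log2 -1.14, SE 0.21, adjusted P = 2.8e-06). Its rat levels were 1.12, 1.29 and 1.22 in RC and 1.05, 0.738 and 0.617 in RM (adjusted P = 0.24). Of the common subunits, Cox6a1 fell in both species. The rat levels of Cox6a1 were 348, 429 and 467 in RC and 307, 295 and 329 in RM (log2 -0.42, SE 0.10, adjusted P = 0.010). In mouse the change of Cox6a1 was smaller (log2 -0.13, SE 0.04, adjusted P = 0.00060).

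Cox7a2l, which takes part in joining complexes III and IV, also fell in both (mouse log2 -0.36, SE 0.04; rat log2 -0.22, SE 0.08, adjusted P = 0.049). Cox5a, an outer subunit of the core, was called in neither species, and Cox5b fell in mouse (log2 -0.17, SE 0.05, adjusted P = 0.00058). Cox8a, a small membrane subunit, rose in mouse from 282, 270 and 253 to 330, 323 and 351 (log2 0.32, SE 0.04, adjusted P = 2.9e-11), a rise that was 0.04 and not called with library size alone.

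In complex I the members that carry the flavin and the iron-sulfur clusters fell in mouse in the main and were not called in rat. Of the core subunits described here, Ndufs1, Ndufs8, Ndufv1 and Ndufv2 fell in mouse, and Ndufs3 and Ndufs7 rose on the TMM scale. Ndufs1, the largest subunit, was at 9.60, 9.77 and 9.12 in MC and 6.63, 6.54 and 6.25 in MM (log2 -0.55, SE 0.05, adjusted P = 3.15e-16). In rat it was at 55.6, 45.2 and 49.3 in RC and 56.8, 56.9 and 51.0 in RM, with overlap.

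Ndufv1, which binds NADH and the flavin, was at 29.8, 28.7 and 27.5 in MC and 23.1, 24.3 and 21.8 in MM (log2 -0.31, SE 0.05, adjusted P = 4.35e-08). Its neighbour Ndufv2 fell by 0.26 (SE 0.05) and Ndufs8 by 0.30 (SE 0.07) on the log2 scale. Ndufs7 rose by 0.17 (SE 0.06, adjusted P = 0.013) on the TMM scale and had a log2 fold change of -0.11 with library size alone, and Ndufs3 rose by 0.31 (SE 0.05), which was 0.03 and not called with library size alone. The log2 fold changes of these 6 genes in rat lay between -0.24 and 0.13, and the smallest adjusted P was 0.071 (Ndufs3).

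Of the accessory subunits of complex I, 9 of 26 tested in rat were called (34.6%), every one lower, beside 16.8% of all rat genes that fell. They were Ndufa6, Ndufa7, Ndufa13, Ndufb2, Ndufb5, Ndufb7, Ndufb8, Ndufb11 and Ndufv3. Of the core subunits 0 of 7 were called in rat, and a difference between core and accessory subunits was not tested. The Ndufb genes, which lie in the membrane arm, gave 5 calls among 10 tested in rat and 8 among 9 in mouse, all lower, where 16.8% of all rat genes and 37.7% of all mouse genes fell. DESeq2 called 5 of these 8 mouse genes, and 1 of the 5 rat genes (Ndufb7) was called without RM replicate 2, 2 each without RC replicate 3, RM replicate 1 or RM replicate 3, and 3 without RC replicate 2. Ndufb7 was at 42.2, 48.8 and 47.96 in RC and 35.5, 33.1 and 34.9 in RM (log2 -0.42, SE 0.09, adjusted P = 0.0042). Ndufa6 was at 50.4, 60.7 and 64.2 in RC and 46.7, 44.6 and 46.5 in RM (log2 -0.35, SE 0.10, adjusted P = 0.021).

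In mouse Ndufb11 fell from 72.3, 71.6 and 63.1 to 46.4, 47.1 and 44.7 (log2 -0.58, SE 0.05), and Ndufa5, a subunit of the matrix arm, from 37.3, 37.7 and 34.0 to 23.6, 24.7 and 23.5 (log2 -0.60, SE 0.07, adjusted P = 2.6e-12). Against these, Ndufv3 rose from 20.5, 17.9 and 20.5 in MC to 52.0, 53.3 and 52.4 in MM, a 2.67-fold difference (log2 1.42, SE 0.05, adjusted P = 1.8e-37). Ndufv3 encodes a small accessory subunit beside Ndufv1 and Ndufv2 and lies at chr17:31520115-31531331 (GRCm38, plus strand). Ndufa1, a small membrane subunit of the X chromosome, rose from 73.2, 67.4 and 69.1 to 121, 112 and 119 (log2 0.75, SE 0.06, adjusted P = 1.4e-17).

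Rat Ndufv3 was at 44.4, 49.0 and 43.9 in RC and 38.8, 38.6 and 36.2 in RM, a fall without overlap (log2 -0.27, SE 0.08, adjusted P = 0.018). A second rat gene row under the symbol Ndufv3 had 18 counts in RC and 26 in RM and was not tested. Several subunits that every cell uses were near 0 in 1 table. In rat, the mean FPKM of RC was 0.346 for Ndufa1, 0.506 for Ndufs6 and 0.492 for Atp5pb, and in mouse that of MC was 0.687 for Ndufb2, so these were not members. Just inside the limit of 1 were rat Cox6b2 and Atp5s. The tables show nothing of reads lost to close copies or pseudogenes, which was not tested.

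Complex II, which links the citric acid cycle to the chain, fell in mouse for 3 of its 4 subunits, where 37.7% of all genes fell. The catalytic flavoprotein Sdha was at 55.8, 54.9 and 53.1 in MC and 40.6, 42.1 and 42.7 in MM (log2 -0.39, SE 0.03, adjusted P = 7.5e-16). The iron-sulfur subunit Sdhb fell by 0.30 (SE 0.05) and the membrane anchor Sdhc by 0.43 (SE 0.04) on the log2 scale, while Sdhd did not differ beyond its spread. None of the 4 was called in rat, where Sdha was at 64.6, 61.2 and 63.0 in RC and 65.7, 66.7 and 64.2 in RM. Rat Sdhb and Sdhc had log2 fold changes of -0.19 (SE 0.08, adjusted P = 0.080) and -0.22 (SE 0.09, adjusted P = 0.086), and Sdhd 0.04. By edgeR's test of the difference between the species, Sdha alone of the 4 was called. The adjusted P of that difference was 0.28 for Sdhb and 0.098 for Sdhc.

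Complex III gave 3 falls and 3 rises among 9 genes in mouse, 33.3% each. This was close to the 37.7% of all mouse genes that fell and the 37.4% that rose. Uqcrc1, a core protein, fell from 33.4, 34.9 and 32.1 to 25.0, 25.8 and 25.6 (log2 -0.39, SE 0.04, adjusted P = 5.7e-14), and Uqcrb fell by 0.41 (SE 0.07). Uqcrq, a small membrane subunit, rose from 58.0, 53.6 and 51.8 to 85.2, 87.6 and 85.1 (log2 0.66, SE 0.04, adjusted P = 2.5e-23). The Rieske iron-sulfur protein Uqcrfs1 rose slightly (log2 0.15, SE 0.04, adjusted P = 0.0020) but was called lower with library size alone (-0.13, adjusted P = 0.0075). Cyc1, the cytochrome c1 gene, was not called in either species.

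In rat 2 small subunits of complex III fell among 10 genes tested (20%), close to the 16.8% of all rat genes that fell. Uqcrq went from 44.9, 47.7 and 60.1 in RC to 39.1, 37.0 and 43.7 in RM (log2 -0.35, SE 0.11, adjusted P = 0.036), and Uqcr11 from 95.5, 110 and 113 to 84.4, 77.1 and 91.8 (log2 -0.33, SE 0.09, adjusted P = 0.021). Cycs, whose protein carries electrons to complex IV, rose in mouse from 14.4, 15.01 and 13.8 to 18.4, 17.1 and 19.0 (log2 0.34, SE 0.05, adjusted P = 4.7e-08), a rise of 0.06 that was not called with library size alone. In rat Cycs was at 51.4, 38.1 and 49.7 in RC and 53.3, 54.5 and 51.4 in RM (adjusted P = 0.24).

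ATP synthase fell in mouse more than any complex but complex II, by its median. Of 17 genes tested, 11 fell (64.7%) and 2 rose (11.8%), with a median log2 fold change of -0.24. Of all mouse genes 37.7% fell and 37.4% rose. With library size alone the median was -0.52 and 15 fell. The median over all mouse genes was -0.30 on that scale, and no share of all genes called was counted there. The genes of the rotating c ring, Atp5g1, Atp5g2 and Atp5g3, encode the same mature peptide and all fell. Atp5g1 was at 17.4, 18.7 and 17.4 in MC and 11.4, 11.5 and 12.1 in MM (log2 -0.61, SE 0.05, adjusted P = 9.5e-19), Atp5g2 fell by 0.51 (SE 0.04) and Atp5g3 by 0.44 (SE 0.04).

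The share of Atp5g1 in the summed c ring level was 9.68 ± 0.229% in MC and 8.89 ± 0.0792% in MM (SD, n = 3), without overlap. The catalytic subunits fell less. Atp5b was at 205, 208 and 193 in MC and 175, 181 and 182 in MM (log2 -0.17, SE 0.03, adjusted P = 2.2e-07), and Atp5a1 fell by 0.36 (SE 0.03). Atp5s fell by 0.87 (SE 0.15) and Atp5o, the stalk subunit, by 0.62 (SE 0.21, adjusted P = 0.0066). Mouse Atp5o was near the limit of 1, at a mean of 1.90 in MC and 1.23 in MM, on 214 against 126 counts. Its rat counterpart Atp5po was at a mean of 150 in RC. Whether reads of mouse Atp5o were lost was not tested.

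In rat 2 of 17 complex V genes were called (11.8%), both lower, where 16.8% of all rat genes fell. They were Atp5me and Atp5mg, small subunits of the membrane part. Atp5me went from 98.6, 95.0 and 115 in RC to 85.4, 69.3 and 84.1 in RM (log2 -0.37, SE 0.11, adjusted P = 0.023), and Atp5mg fell by 0.27 (SE 0.09, adjusted P = 0.033). The rat genes of the c ring, Atp5mc1, Atp5mc2 and Atp5mc3, and of the catalytic subunits, Atp5f1a and Atp5f1b, were not called, with log2 fold changes between -0.22 and -0.01.

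Rat calls depended on single control and model libraries more than mouse calls did. The number of rat members that fell was 39 without RC replicate 1, 13 without RC replicate 2 and 5 without RC replicate 3, and was 8, 4 and 9 without RM replicates 1, 2 and 3 in turn. All 18 kept their sign in each of these fits. Ndufa4, Ndufb7 and Cox6a2, and among the members that rose Ndufa4l2, were called in every one. In mouse 32 of the 40 that fell and 16 of the 22 that rose were called in each fit without 1 library.

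The difference between the species was tested for the 63 genes with the same symbol in both tables, of which 62 were members in both species and Ndufb2 in rat alone. The change was more positive in mouse for 17, beside 31.4% of all 10951 shared genes tested, and more positive in rat for 10, beside 32.3%. For 36 the difference was not called. The members that fell in rat and rose in mouse were Ndufv3, Uqcrq, Ndufa7 and Uqcr11. The difference (mouse minus rat, log2) was 1.69 for Ndufv3 (SE 0.09, adjusted P = 8.4e-11), 1.01 for Uqcrq (SE 0.13, adjusted P = 3.0e-06), 0.66 for Ndufa7 (SE 0.11, adjusted P = 4.0e-05) and 0.65 for Uqcr11 (SE 0.11, adjusted P = 0.00010). With library size alone the mouse rise of Ndufa7 and Uqcr11 was 0.03 and 0.04 and not called, while their difference from rat still was.

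Ndufa4l2 and Cox4i2 rose in both species and more in mouse, by 2.16 (SE 0.11, adjusted P = 3.7e-11) and 1.34 (SE 0.11, adjusted P = 2.6e-08). Among those more positive in rat, Ndufa5 had the smallest P, at -0.80 (SE 0.11, adjusted P = 8.3e-06), followed by Ndufs1 at -0.68 (SE 0.10). Sdha differed by -0.44 (SE 0.07) and Uqcrc1 by -0.43 (SE 0.11). Cox6a2, on few counts in mouse and a mouse member through MC alone, differed by -2.00 (SE 0.58, adjusted P = 0.0068). Library size alone left 6 of the 17 and all 10 of the 10, and the 6 were the genes of opposite direction with Ndufa4l2 and Cox4i2. A total of 7 genes that were members in both species fell in both. No share of all shared genes that fell in both was counted, so the 7 has no background beside it.

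Across the 63 genes, which share the libraries of each species, Pearson's r between the rat and mouse log2 fold changes was 0.61 and Spearman's rho 0.17. Without Ndufa4l2, Cox4i2, Cox6a2 and Cox6b2 these were -0.06 and -0.01 over 59 genes. The rat table names ATP synthase genes by newer symbols, so 17 pairs of such genes were added through RefSeq synonyms, a choice made after seeing the files. The counts were then 21 and 17 of 80. Of the added pairs, Atp5me with Atp5k alone was called lower in both species (log2 -0.37 in rat and -0.35 in mouse). The pairs more positive in rat included Atp5f1a with Atp5a1 (-0.32, SE 0.07) and Atp5mc3 with Atp5g3 (-0.43, SE 0.09), and the pair Atp5if1 and Atpif1, the inhibitor of ATP synthase, differed by -1.28 (SE 0.14, adjusted P = 4.6e-07).

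**Figure D4:**
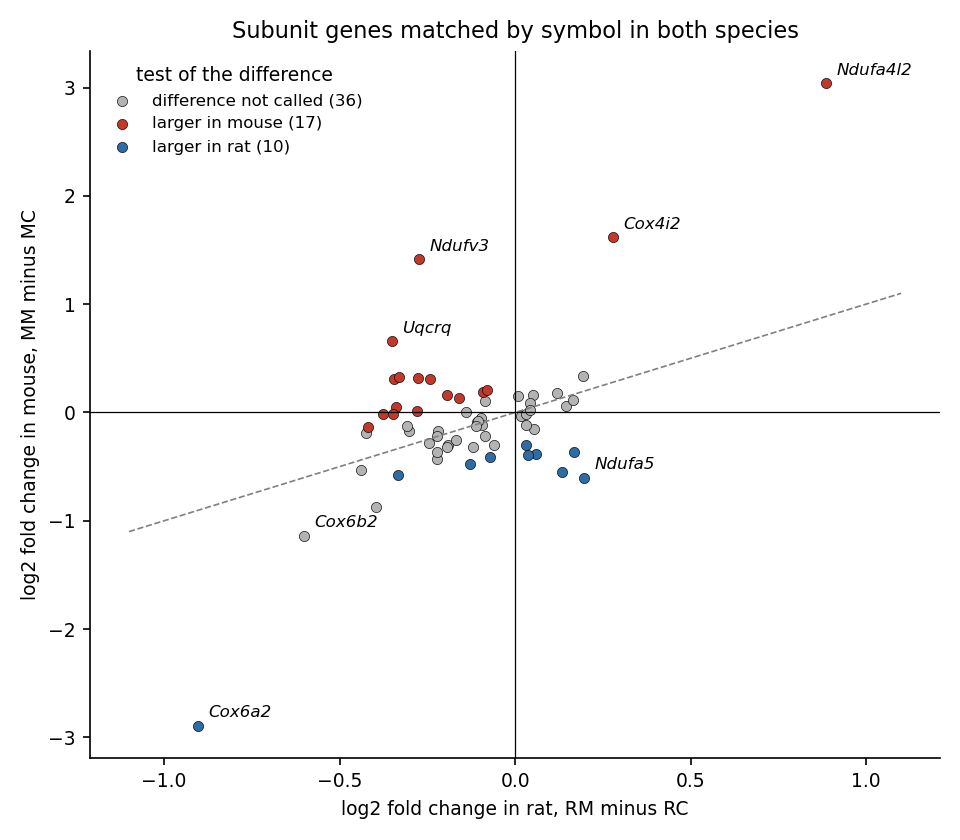
Log2 fold change in mouse (MM minus MC, y axis) against that in rat (RM minus RC, x axis) for the 63 genes with the same symbol, coloured by the test of the difference, with the dashed line where both are equal. The 17 genes more positive in mouse lie above the line and the 10 more positive in rat below it, and Ndufa4l2, Cox4i2 and Cox6a2 lie away from the rest.

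The mitochondrially encoded subunits are part of the same complexes. In rat 4 of 13 rose, beside 18.3% of all genes, and 9 were not called, with a median log2 fold change of 0.19. Mt-nd2, a complex I subunit, was at 1808, 1358 and 1480 in RC and 2285, 2273 and 1881 in RM (log2 0.47, SE 0.11, adjusted P = 0.0074), and Mt-nd4l, Mt-nd5 and Mt-co2 rose by 0.44, 0.30 and 0.34. The catalytic subunit Mt-co1 was at 7548, 5899 and 7723 in RC and 8095, 8396 and 7866 in RM (adjusted P = 0.11). The other 8, Mt-atp6, Mt-atp8, Mt-co3, Mt-cyb, Mt-nd1, Mt-nd3, Mt-nd4 and Mt-nd6, had log2 fold changes between -0.09 and 0.20.

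In mouse 11 of 12 tested rose on the TMM scale, beside 37.4% of all genes, and mt-Nd4l was not called, with a median log2 fold change of 0.31. On library size alone 5 rose (mt-Cytb, mt-Nd1, mt-Nd2, mt-Nd3 and mt-Nd4), 2 fell (mt-Nd5 and mt-Nd6) and the median was 0.03. The largest of the abundant ones, mt-Cytb of complex III, was at 1592, 1621 and 1646 in MC and 2227, 2245 and 2148 in MM (log2 0.45, SE 0.02, adjusted P = 2.0e-25), and was still positive at 0.17 with library size alone. mt-Nd1 rose by 0.42 and mt-Co1 by 0.26, and mt-Co1 was at -0.02 with library size alone. The rises of mt-Nd4, mt-Nd2, mt-Co2, mt-Co3, mt-Atp6, mt-Nd5 and mt-Nd6 were between 0.19 and 0.37. mt-Nd3 rose by 0.77 (SE 0.23). Genes of the mitochondrial genome took 1.15 to 1.19% of counts in MC, 1.17 to 1.21% in MM, 2.95 to 3.70% in RC and 3.73 to 4.05% in RM.

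Other mitochondrial genes were read from lists. Beside them, 37.4% of all mouse genes rose and 37.7% fell on the TMM scale. In rat 18.3% of all genes rose and 16.8% fell. The mouse lists below gave more falls with library size alone. For the assembly factors 1 then rose and 12 fell for complex I, 2 fell for complex II, 1 rose and 5 fell for complex III, 2 rose and 13 fell for complex IV, and 1 rose and 4 fell for complex V. For the citric acid cycle 15 fell, and for the regulators of biogenesis 4 rose and 10 fell. The median of all mouse genes tested was itself at -0.30 on that scale. No share of all genes called was counted there, so these counts have no background beside them. Of the subunits that the symbols miss, AA467197, the mouse gene of a further Ndufa4 paralog known to be induced in inflammation, rose from 0.795, 0.672 and 0.755 to 2.29, 3.32 and 3.03 (log2 1.95, SE 0.26, adjusted P = 9.0e-10), and lies at chr2:122636986-122641191 (GRCm38, plus strand). Atpif1 fell by 1.32 (SE 0.11), Usmg5 rose by 0.46 (SE 0.05), and Ndufab1, the acyl carrier subunit of complex I, rose by 0.36 (SE 0.09, 0.08 with library size alone). In rat Ndufab1 was not called.

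Assembly factors of complex I gave 9 that fell and 2 that rose of 15 in mouse, and 1 and 1 of 15 in rat. The mouse factors with the smallest P were Ndufaf5 (log2 -1.002, SE 0.14) and Ndufaf2 (-0.79, SE 0.12), and the rat ones Ndufaf4 (0.65, SE 0.16) and Ndufaf7 (-0.33, SE 0.11). Factors of complex II gave 1 rise (Sdhaf2, 0.37, SE 0.06, 0.09 with library size alone) and 1 fall (Sdhaf3, -0.63, SE 0.19) of 4 in mouse, and neither gene was called in rat. For complex III, 1 rose (Uqcc2, 0.52, SE 0.05) and 2 fell of 6 in mouse, among them Bcs1l, which inserts the Rieske protein (-0.99, SE 0.12), and in rat 2 of 6 fell (Lyrm7, -0.48, SE 0.14, and Uqcc3, -0.32, SE 0.10). For complex IV, 3 rose and 5 fell of 21 in mouse, with the smallest P for Coa5 (0.49, SE 0.04) and Cmc2 (-1.19, SE 0.12), and 3 of 20 fell in rat, among them Coa4 (-0.43, SE 0.10) and Cox14 (-0.30, SE 0.10). For complex V, 1 rose (Atpaf2, 0.74, SE 0.07) and 2 fell of 5 in mouse, among them Atpaf1 (-0.23, SE 0.08), whereas in rat 1 of 5 was called, a rise of Atpaf1 (0.41, SE 0.10), and Tmem242 was at -0.16 (adjusted P = 0.27).

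The citric acid cycle fell in mouse for 12 of 17 genes and rose for 2, with a median of -0.28, and in rat 15 of 16 were not called. Mouse Idh2, the NADP-dependent isocitrate dehydrogenase of mitochondria, went from 67.3, 66.3 and 63.0 to 5.98, 6.25 and 6.94 (log2 -3.36, SE 0.05, adjusted P = 7.1e-55), and Pdha1 fell by 0.55. In rat Idh2 was not called (log2 -0.23, SE 0.08, adjusted P = 0.051).

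Regulators of mitochondrial transcription and biogenesis gave 5 that rose and 6 that fell of 17 in mouse and 5 and 1 of 17 in rat. Of all genes, 37.4% rose and 37.7% fell in mouse, which neither mouse count exceeded, and 18.3% and 16.8% in rat. Ppargc1a, the coactivator known to drive mitochondrial biogenesis, fell in both. It went from 3.68, 3.63 and 3.21 to 0.694, 0.923 and 0.753 in mouse (log2 -2.15, SE 0.11, adjusted P = 6.3e-27) and from 0.723, 0.696 and 0.818 to 0.270, 0.394 and 0.348 in rat (log2 -1.13, SE 0.255, adjusted P = 0.00635). Tfam, which packages and transcribes mitochondrial DNA, rose in rat by 0.36 (SE 0.09) and fell in mouse by 0.32 (SE 0.07). Yy1, whose core motif was searched above, rose in mouse by 0.76 (SE 0.04).

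Of the genes of mitochondrial structure and import 8 rose and 4 fell of 20 in mouse, beside 37.4% and 37.7% of all genes. With library size alone the balance turned to 5 that rose and 12 that fell. The rises were led by the outer membrane channel Vdac1 (log2 1.35, SE 0.03) and the protease Afg3l2 (1.28, SE 0.04). In rat 1 of 19 fell (Fis1, -0.43, SE 0.09), beside 16.8% of all genes, and Mfn1 was at 0.25 (adjusted P = 0.052). Macrophage and leukocyte markers were also read. In mouse 4 of 8 were tested and rose, with a summed FPKM of 6.76 to 7.45 in MC and 38.1 to 40.8 in MM, of which Cd14 had 25.9 to 27.3 in MM, while Itgam had 0 counts, Adgre1 1 and Ptprc 4 over all 6 libraries. In rat 2 rose and 2 fell of 5 tested, with sums of 20.4 to 24.2 and 31.7 to 36.2. Of the endothelial markers 1 was tested in mouse and fell, and they summed to at most 0.527 FPKM in any library of either species. Of the fibroblast and tendon markers 1 of 5 tested rose in rat and 1 rose and 4 fell of 6 in mouse, and they summed to 753 to 828 in RC, 715 to 749 in RM, 71.5 to 73.4 in MC and 51.6 to 53.5 in MM. The part of other cells in the levels of the members was not tested.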

How the data were processed

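The 12 libraries were made from total RNA with a NEBNext Ultra kit. Per the labels, HISAT2 and HTSeq 0.11.2 with GRCm38 and Rnor_6.0 are named in the submitters' processing notes, with no roles given, and whether the strand of reads was used is not given in the sources used here, so overlapping and antisense genes cannot be told apart. The authors deposited 1 table per species with raw counts per gene and FPKM.

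Each species was fitted on its own counts with filterByExpr, TMM factors and the quasi-likelihood test of edgeR 4.0.16, run under R 4.3.3, and P values were adjusted over all 13303 rat or 14774 mouse genes tested. The species difference, the change in mouse minus that in rat, was fitted over genes with the same symbol, taking the row with most counts where a symbol recurs. SE came from the fit. DESeq2 1.42.0, limma 3.58.1 on log2(FPKM + 1) and log2(FPKM + 0.1), other scalings, no filter, a replicate block and leaving out each library were alternatives, and the functions were tested on simulated data. Scaled FPKM is the deposited FPKM divided by the TMM factor, and sums of the deposited FPKM and list counts with library size alone were set beside it, all chosen after seeing the data. Mouse coordinates come from GENCODE M21, rat promoters from RefSeq (GRCr8), whose build differs from that of the files.

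The members and lists were chosen with earlier results of these data known. Named members are the fixed subunits with redox centres, the catalytic subunits and the paralogs, the 2 largest rises and falls per complex among called members without overlap, the 3 smallest P of the species difference among opposite and other members, and those near FPKM 1. Of other lists, the mitochondrially encoded subunits and those the symbols miss were all named where tested, and otherwise the 2 genes with the smallest P per species. Ndufa13, Ndufb5, Ndufb8, Ndufs3, Sdhd and rat Atp5if1 were named after their values were seen. Values of some genes that this rule names are not reported here. Counts totalled 16841580 to 25903459 per library, and 3 counts, the limit of a count of 0, came to 0.116 to 0.178 CPM. Replicates of a group differed by more than sampling noise, and more so in rat. Between pairs of replicates, the chi-square of the counts per degree of freedom was 6.07 to 27.8 in rat and 1.90 to 2.48 in mouse.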

Additional observations from a re-analysis of the deposited data

Results flagged for a closer look

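The following results were singled out because the change under IL-1β differed between the species by the test of the difference itself (edgeR, adjusted over all shared genes). Of the 63 genes tested, of which 62 were members in both species, 17 had a change more positive in mouse and 10 a change more positive in rat. Of all 10951 shared genes tested, 31.4% were more positive in mouse and 32.3% in rat, shares that neither count exceeded. Among members called in opposite directions, the difference, mouse minus rat on the log2 scale, was 1.69 for Ndufv3, 1.01 for Uqcrq and 0.66 for Ndufa7. Among the others it was 2.16 for Ndufa4l2, 1.34 for Cox4i2 and -0.80 for Ndufa5. Every one of these 6 differences was called in each fit without 1 library and with library size alone.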

How the results depend on the processing

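In rat, 2 members rose and 18 fell. Upper-quartile factors gave 1 that rose and the criteria of the study 1 and 1. Leaving out 1 library gave 1 to 4 that rose and 4 to 39 that fell, with fewer samples in each fit. In mouse, 22 rose and 40 fell. Library size alone gave 6 and 65, limma on log2(FPKM + 1) and on log2(FPKM + 0.1) each 6 and 67, the criteria of the study 4 and 3, and upper-quartile factors 12 that rose. Library size alone and limma leave out the TMM factors, which differ between the mouse groups. No share of all genes called was counted without these factors. The mouse medians by complex were lower with library size alone and with upper-quartile factors, for example -0.40 and -0.25 in place of -0.12 for complex I. Leaving out 1 library gave 19 to 24 that rose and 33 to 41 that fell. For the difference between species, 17 members were more positive in mouse and 10 in rat, beside 31.4% and 32.3% of all shared genes tested. Library size alone gave 6 and 31, upper-quartile factors 10 that were more positive in mouse, ATP synthase pairs (added after seeing the data) 17 that were more positive in rat, and leaving out 1 library 12 to 20 and 7 to 14. The direction reversed for 3 of the named mouse members. With library size alone and with limma on log2(FPKM + 0.1) and on log2(FPKM + 1), the log2 fold change was -0.11, -0.11 and -0.11 for Ndufs7, -0.12, -0.12 and -0.12 for Cox7a2, and -0.13, -0.13 and -0.13 for Uqcrfs1. DESeq2, no filter on low counts and a mean FPKM of at least 10 kept all of these counts within 1.5 times. Same-numbered libraries correlated by 0.02, -0.10 and 0.08 in rat and by 0.00, 0.01 and 0.00 in mouse after centring on the group means. In neither species did every library correlate best with its own number, so the numbers were not taken to pair samples. The fit with a replicate block gave 2 that rose and 17 that fell in rat, 22 and 40 in mouse, and differences of 15 and 10.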
